A study of Mus musculus with 257 samples.

Results

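The mouse cerebellum grows from a small late-fetal plate into a foliated structure around birth, and the comparison here covered the first measured step of that growth, from E16.5 (age in embryonic days) to P5 (age in postnatal days). The libraries were chosen by their labels: all 5 WT cerebella labelled E16.5 and all 5 labelled P5, which were 10 of the 257 libraries of the series. All 10 were labelled as normal development, with the genotype WT, and no other allele or agent is named for them. The series followed normal cerebella and cerebella and tumours of Wnt and Sonic hedgehog (Shh) models with or without a Ddx3x alteration in Blbp-positive cells. Of these, BPtch (the Shh model without a Ddx3x alteration, 5 libraries each at E16.5 and P5) is compared with WT near the end. Levels of WT libraries labelled P13 and P30+ are quoted beside some genes. Sex, strain and library batch are not among the labels used here. Sample titles carry a number whose meaning is not stated. The 5 P5 libraries have 5 numbers and the E16.5 libraries 4, with replicates 2 and 3 under the same one. Embryo titles add a suffix of P and digits, and embryos of other genotypes share some of these numbers. Whether a number marks a dam or a litter is not stated, so the p-values rest on the spread among the libraries as deposited. A fit with E16.5 replicates 2 and 3 summed is given in the last section.

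As background, granule cell progenitors lie in the external granule layer on the surface of the cerebellum. They divide in response to Shh secreted by Purkinje cells, leave the cell cycle, and migrate inwards as young granule neurons. Purkinje cells are born earlier and grow their dendrites after birth. Bergmann glia, astrocytes, interneurons and oligodendrocytes come from the ventricular zone and from progenitors in the white matter, and much of their production falls around and after birth.

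Each library was a count of reads per gene from cerebellum, with 11933207 to 25640752 counts in total. Levels are given as CPM, the counts per 1000000 counts of the library. Of 18152 genes with enough counts to test, 2331 (12.8%) were higher at P5 and 1769 (9.75%) were lower at an adjusted p under 0.05, which is what "called" means here. A change of at least 2-fold was called for 1046 genes (5.76%) upward and 485 (2.67%) downward. The median log2 fold change of all genes tested was 0.01, and every log2 fold change is P5 against E16.5. Statements below that the ages did not overlap only describe the values of the genes named. The share of all tested genes without overlap is not given here, so they are no support beyond the test. In bulk tissue, more or fewer cells of a type and more or less RNA per cell cannot be told apart.

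Markers of the labelled tissue were present in all 10 libraries. The granule progenitor list summed to 906 CPM or more in each, and the mature Purkinje list to 382 CPM or more. Some libraries stood apart in markers of other tissue. The summed level of 17 Hox genes, which mark hindbrain behind the cerebellum, was 738, 102, 727, 82.8 and 206 CPM in E16.5 replicates 1 to 5 and 1.17, 193, 0.479, 3.78 and 0.391 CPM in P5 replicates 1 to 5, so P5 replicate 2 was the only P5 library with a level like that of the embryos. Choroid plexus genes summed to 102 to 4955 CPM at E16.5 and 134 to 3639 CPM at P5, high in E16.5 replicates 1, 3 and 5 and in P5 replicates 2 and 4. The dopamine transporter gene Slc6a3, a midbrain marker, reached 67.8 CPM in P5 replicate 4 and stayed between 0.575 and 1.23 CPM in the other 4. Mitochondrial reads were 0.430% to 0.688% of counts in E16.5 replicates 4 and 5 and P5 replicate 2, against 1.499% to 2.60% in the other 7. Fits without the 4 Hox-rich libraries (E16.5 replicates 1, 3 and 5 and P5 replicate 2) and without the 3 of low mitochondrial share were added after the data had been seen and hold fewer samples. The fit without the Hox-rich libraries keeps E16.5 replicates 2 and 4 and P5 replicates 1, 3, 4 and 5. Those embryos were still at 102 and 82.8 CPM in the Hox genes, against 0.391 to 3.78 CPM at P5. That fit therefore does not remove the Hox difference between the ages. Calls of list members named below that were lost in either of these added fits, or without 1 library, are given beside the gene. The plot of summed marker levels shows these differences library by library.

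**Figure D1:**
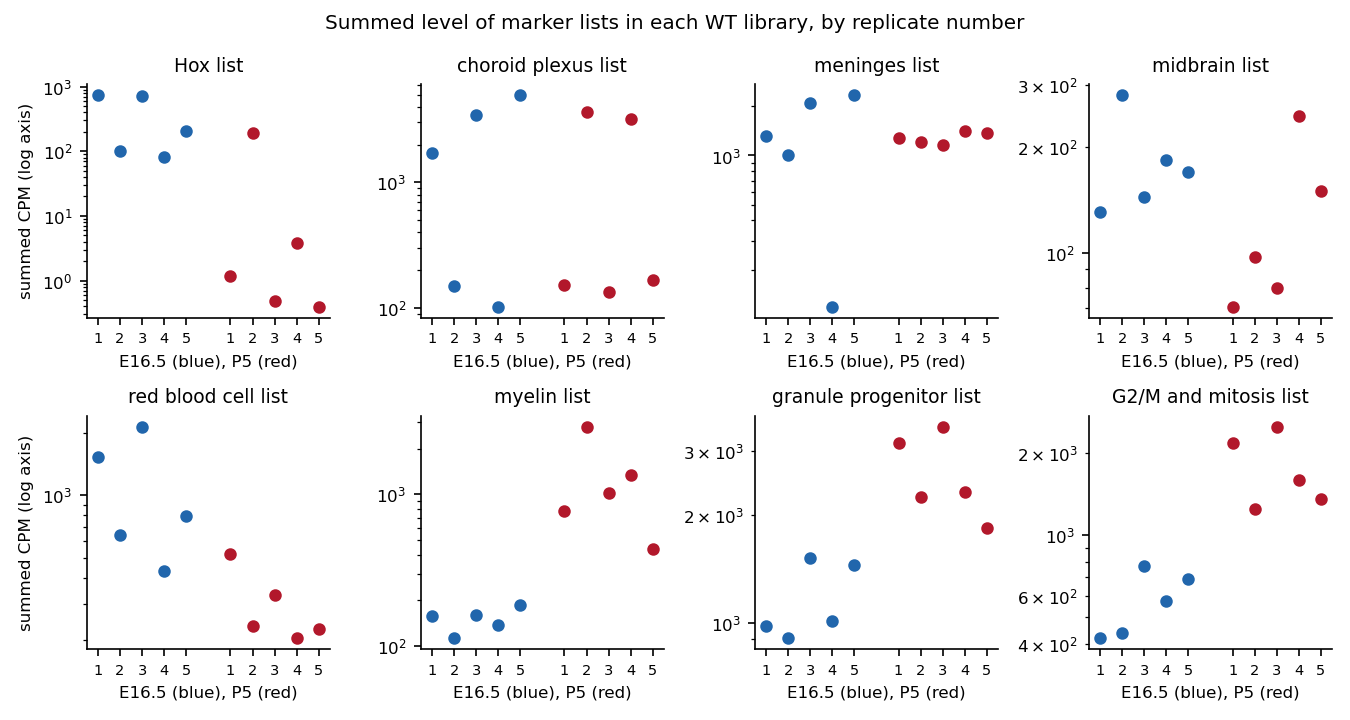
Summed level of 8 marker lists (y axis, CPM, log scale) in each WT library, by replicate number, with E16.5 in blue and P5 in red. Hox genes are low at P5 in every library but replicate 2, choroid plexus genes split both ages, and the granule progenitor and mitosis lists do not overlap between ages.

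Shh target genes rose, and so did the effectors Gli1 and Gli2. Of 13 Shh target genes, 12 were called higher and none lower, with a median log2 fold change of 1.36. Fgf5, a growth factor gene, rose by 3.09 on the log2 scale. Bmi1, a Polycomb gene, was at 0.23 and was not called.

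Shh itself, the ligand, was low and did not pass the test. Its levels were 6.32, 1.51, 2.87, 7.13 and 6.47 CPM in the 5 E16.5 libraries and 4.68, 5.79, 3.88, 4.13 and 3.69 CPM in the 5 P5 libraries (log2 fold change -0.16, SE 0.34, adjusted p = 0.79), and the ages overlapped. Among the receptors and co-receptors, Boc was called higher, with 35.3, 50.95, 70.8, 60.9 and 62.4 CPM at E16.5 and 128, 105, 119.9, 85.9 and 74.6 CPM at P5 (log2 fold change 0.86, SE 0.17, adjusted p = 0.0044). All 5 P5 libraries lay above all 5 embryos. Cdon, the other co-receptor of this immunoglobulin family, was called lower, with 29.98, 41.5, 44.1, 45.03 and 45.6 CPM at E16.5 and 17.8, 34.7, 13.1, 24.9 and 21.4 CPM at P5 (log2 fold change -0.90, SE 0.21, adjusted p = 0.0088), and P5 replicate 2 reached into the E16.5 range. Both genes encode cell-surface proteins that bind Shh together with Ptch1.

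Ptch1 encodes the receptor that is itself a target of the pathway. It was at 159, 97.6, 121, 135 and 134 CPM at E16.5 and 228, 195, 250.3, 194 and 192 CPM at P5, with no overlap (log2 fold change 0.69, SE 0.14, adjusted p = 0.0036). Smo, the membrane protein that Ptch1 holds back, was called at 0.63, but that call was lost without E16.5 replicate 2 or 4 or P5 replicate 1 or 3. Sufu, a cytoplasmic inhibitor of the GLI factors, rose by 1.20 on the log2 scale, with no overlap between the ages.

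Gli1 and Gli2 had the largest rises of the pathway list. Gli1 (chr10:127329882-127341974), an activator and a direct target, was at 11.1, 12.7, 21.8, 12.8 and 33.3 CPM at E16.5 and 93.02, 91.4, 84.5, 43.8 and 50.4 CPM at P5 (log2 fold change 1.97, SE 0.30, adjusted p = 0.00077). P5 replicates 1, 2 and 3 were the high ones, and even P5 replicate 4, the lowest, was above all embryos. Gli2 (chr1:118834132-119053619), the main activator downstream of Smo, was at 14.1, 19.5, 26.1, 18.1 and 26.7 CPM at E16.5 and 91.5, 61.6, 115, 69.2 and 66.8 CPM at P5 (log2 fold change 1.94, SE 0.21, adjusted p = 8.8e-05), again without overlap. Gli3, largely a repressor, was at 0.40 and was not called. Hhip, a target whose protein binds and sequesters Shh, was at 4.54, 4.36, 3.47, 3.54 and 2.94 CPM at E16.5 and 13.2, 10.5, 13.7, 10.98 and 13.2 CPM at P5 (log2 fold change 1.69, SE 0.19, adjusted p = 0.00012), also without overlap.

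Over the whole list of 16 ligand, receptor and transducer genes, 9 were called higher and 3 lower (Cdon, Gpr161 and Disp1), with a median of 0.63. Gpr161, a ciliary receptor that restrains the pathway, was at -0.84, and Disp1, which releases the ligand, at -0.72. At the later WT ages, which entered no test here, median levels of Gli1 were 20.3 CPM at P13 and 25.5 CPM at P30+ and those of Gli2 were 21.2 CPM at P13 and 10.3 CPM at P30+. One P13 library, replicate 3, stood apart, with 207 CPM summed over the granule progenitor list against 2207 to 2861 CPM in the other 4, so P13 is given by medians. Of 79 genes examined library by library, 35 overlap another annotated gene, among them Shh, Gli1, Ptch1, Zic1, Pax6, Ccnd1 and Ccnd2. The strand setting of the counting is not given in the sources used here, so reads of the overlapping partner could not be told apart.

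Proliferation genes rose together. All 20 genes of the G2/M and mitosis list were called higher, each by at least 2-fold, with a median log2 fold change of 1.37 and a range from 1.13 to 2.13. Of 20 DNA replication genes, 19 were called higher, with a median of 0.93. The exception, Gins2, a replicative helicase subunit, was at 0.77. Summed over the mitosis list, the levels were 418, 439.7, 774, 574 and 689 CPM at E16.5 and 2175, 1249, 2499, 1599 and 1362 CPM at P5. The lowest P5 library, replicate 2, was also the one with high Hox, choroid plexus and myelin levels, and it still lay above every embryo.

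Mki67 (chr7:135689784-135716361), the gene of the proliferation antigen Ki-67, was at 66.5, 72.4, 101, 82.8 and 81.6 CPM in the 5 E16.5 libraries and 439, 229.9, 510.4, 324 and 276 CPM in the 5 P5 libraries (log2 fold change 2.13, SE 0.21, adjusted p = 6.7e-05). Top2a, the topoisomerase that untangles chromosomes before division, was at 69.8, 70.6, 129.8, 102 and 108 CPM at E16.5 and 409, 225, 451, 303 and 265 CPM at P5 (log2 fold change 1.78, SE 0.22, adjusted p = 0.00023). Neither gene overlapped between the ages, and P5 replicates 1 and 3 were the highest for both. Cdk1, the kinase that drives entry into mitosis, was at 16.7, 13.99, 34.4, 19.4 and 32.6 CPM at E16.5 and 69.1, 57.2, 73.4, 50.6 and 38.5 CPM at P5 (log2 fold change 1.29, SE 0.24, adjusted p = 0.0026). The weakest P5 library for Cdk1, replicate 5, was close to the strongest embryo. Mcm3, a subunit of the replicative helicase, was at 16.6, 21.5, 43.1, 25.2 and 38.2 CPM at E16.5 and 93.8, 64.1, 81.4, 61.9 and 55.6 CPM at P5 (log2 fold change 1.30, SE 0.23, adjusted p = 0.002). Of the other replication genes, E2f1, an activator of S phase genes, changed by 1.69, the licensing factor gene Cdt1 by 1.45 and the clamp gene Pcna by 0.91. The median level of Mki67 at the later ages was 59.6 CPM at P13 and 1.26 CPM at P30+.

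**Figure D2:**
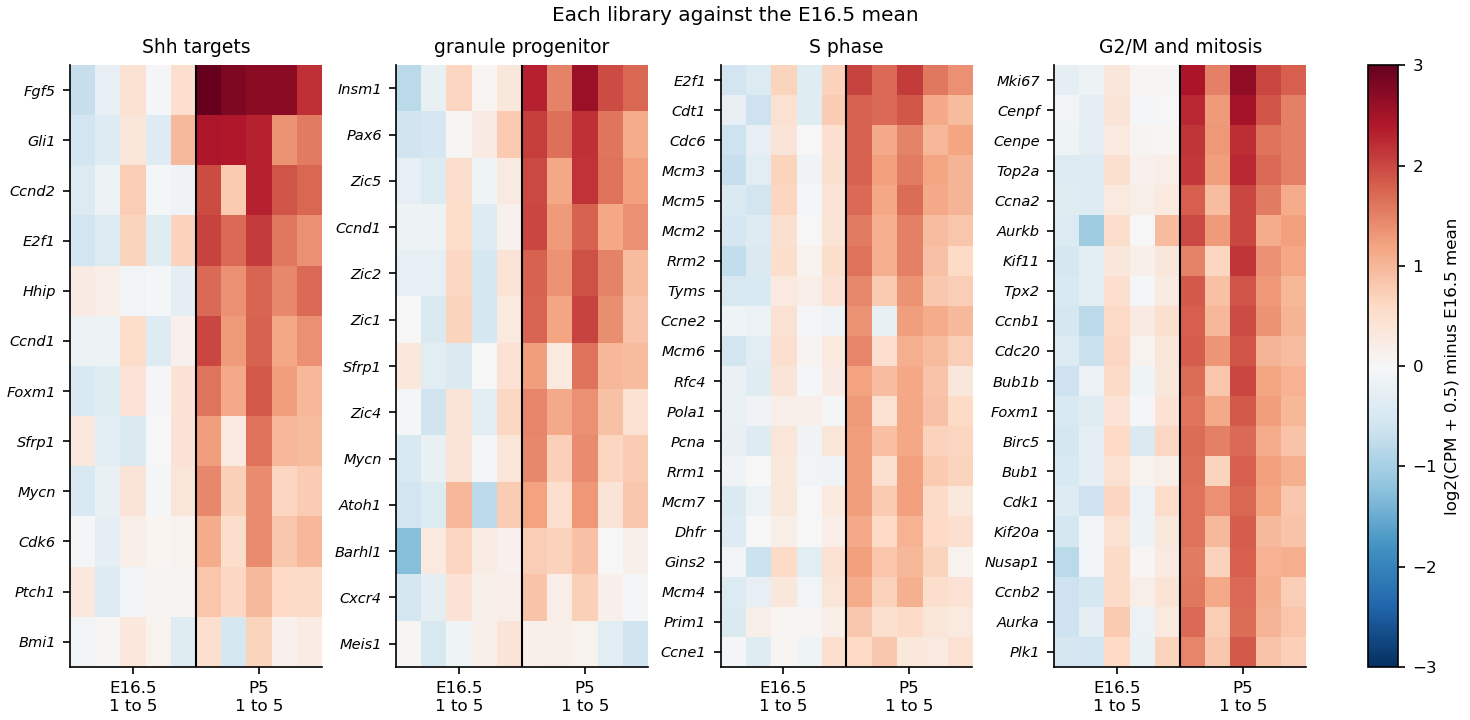
Each WT library against the mean of the 5 E16.5 libraries, as log2(CPM + 0.5), for genes of the Shh target, granule progenitor, S phase and mitosis lists. Genes are in rows ordered by their fold change, libraries are in columns (replicates 1 to 5 of E16.5, then of P5), and red means higher. In the mitosis list all 5 P5 columns are red, with replicates 1 and 3 the darkest by the list's summed level.

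Promoters of the mitosis and replication lists are shown because both lists rose and their promoters are known for different elements. As background, mitosis promoters carry a CHR element (TTTGAA) next to CCAAT boxes, and S phase promoters for E2F elements (TTCCCGC). RefSeq promoter windows (GRCm38.p6, from 250 bases before to 50 after the start) were matched for 15 mitosis genes and 16 replication genes, and both strands were searched. TTTGAA was in 10 of the 15 mitosis genes and in 1 of the 16 replication genes, against 20.2% of all 27025 genes with a window. TTCCCGC was in 8 of the 16 replication genes and in none of the mitosis genes, against 5.29% of all genes. CCAAT was in 13 of 15 and 10 of 16, against 41.1%. These are matches of letters, not measured binding. The GLI letters GACCACCCA were in none of the 7 Shh target genes with a window and in 0.289% of all genes. The printed windows run from 100 bases before to 50 after the start and were picked among those that hold the letters. In the first 4, which belong to mitosis genes, capitals mark TTTGAA or CCAAT on either strand. In the last 2, which belong to replication genes, capitals mark TTCCCGC on either strand.
Cenpf (chr1:189688037-189688186, - strand): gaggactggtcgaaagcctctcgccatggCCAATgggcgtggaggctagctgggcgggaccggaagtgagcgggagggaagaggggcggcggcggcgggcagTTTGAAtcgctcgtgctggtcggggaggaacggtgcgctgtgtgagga
Top2a (chr11:99024140-99024289, - strand): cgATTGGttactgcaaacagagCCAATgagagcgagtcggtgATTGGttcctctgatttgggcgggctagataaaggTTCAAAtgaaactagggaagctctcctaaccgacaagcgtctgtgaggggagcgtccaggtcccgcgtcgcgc
Cdk1 (chr10:69352863-69353012, - strand): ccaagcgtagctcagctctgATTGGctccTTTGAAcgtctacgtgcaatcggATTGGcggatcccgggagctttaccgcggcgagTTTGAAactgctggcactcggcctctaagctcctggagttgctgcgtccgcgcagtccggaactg
Cdc20 (chr4:118437294-118437443, - strand): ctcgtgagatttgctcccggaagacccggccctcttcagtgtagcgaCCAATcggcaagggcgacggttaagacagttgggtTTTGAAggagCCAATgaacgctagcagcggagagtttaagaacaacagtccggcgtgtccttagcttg
Mcm3 (chr1:20820263-20820412, - strand): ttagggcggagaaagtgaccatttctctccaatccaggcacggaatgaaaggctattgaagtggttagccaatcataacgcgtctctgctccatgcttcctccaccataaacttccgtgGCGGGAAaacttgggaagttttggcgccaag
Cdt1 (chr8:122567915-122568064, + strand): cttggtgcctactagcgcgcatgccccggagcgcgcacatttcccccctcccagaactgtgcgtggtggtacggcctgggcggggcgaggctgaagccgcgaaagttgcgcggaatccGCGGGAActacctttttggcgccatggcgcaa
Beside these sequences, Cenpf, which encodes a kinetochore protein, rose by 1.94 on the log2 scale. Cdc20, an activator of the anaphase-promoting complex, rose by 1.38.

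Cell-cycle inhibitors did not move as a group. Of 8 tested genes, 3 were called higher and 1 lower. Cdkn1b, the gene of p27, which marks granule cells leaving the cycle, was at 57.1, 66.5, 76.9, 66.3 and 51.9 CPM at E16.5 and 149.6, 105, 175, 112 and 92.6 CPM at P5 (log2 fold change 0.97, SE 0.18, adjusted p = 0.0025). Cdkn2c, the gene of p18, was at 4.23, 5.28, 10.7, 3.25 and 7.11 CPM at E16.5 and 27.8, 17.1, 28.8, 20.7 and 18.7 CPM at P5 (log2 fold change 1.88, SE 0.29, adjusted p = 0.00083). The imprinted inhibitor gene Cdkn1c, p57, went the other way, with 93.6, 133, 201, 87.1 and 103 CPM at E16.5 and 69.9, 32.5, 60.4, 42.7 and 47.1 CPM at P5 (log2 fold change -1.30, SE 0.26, adjusted p = 0.0037). None of these 3 overlapped between the ages. Cdkn1a, the main p53 target among them, was at 0.28 and was not called. Of 11 p53 target genes, 3 were called higher and 1 lower, with a median of 0.12. Eda2r, a TNF receptor family gene, was the largest of these at 1.88, and Bbc3, the cell death gene Puma, was the one called lower, at -0.57. The Bbc3 call was lost without any 1 of E16.5 replicate 1 and P5 replicates 1, 3 and 4 (adjusted p from 0.059 to 0.072), and without the Hox-rich libraries, at -0.56 (adjusted p = 0.057).

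Granule progenitor genes rose, but not all of them. Of 14, 9 were called higher and none lower, with a median of 1.03. Atoh1, the transcription factor that defines the lineage, was among the 5 that were not called, at 5.38, 6.12, 17.1, 4.64 and 14.5 CPM at E16.5 and 19.8, 11.9, 21.3, 10.98 and 14.9 CPM at P5 (log2 fold change 0.72, SE 0.35, adjusted p = 0.17). E16.5 replicates 3 and 5 lay within the P5 range, and the other 3 embryos lay below all P5 libraries. Without the libraries of high Hox level (E16.5 replicates 1, 3 and 5 and P5 replicate 2), the list's median was 1.53, with 10 members called, an alternative added after the data had been seen.

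Insm1, a zinc finger gene switched on as progenitors commit, was at 21.3, 32.3, 59.2, 39.5 and 48.5 CPM at E16.5 and 190.4, 108, 229.6, 149 and 127 CPM at P5 (log2 fold change 2.00, SE 0.26, adjusted p = 0.00034). Pax6, a factor of the rhombic lip lineage, was at 47.9, 51.2, 74.1, 86.2 and 125 CPM at E16.5 and 304, 229, 330.0, 222 and 157 CPM at P5 (log2 fold change 1.69, SE 0.25, adjusted p = 0.0007). Zic1, whose factor keeps progenitors in their state, was at 322, 239, 514, 226 and 396 CPM at E16.5 and 1091, 738, 1325, 857 and 587 CPM at P5 (log2 fold change 1.43, SE 0.26, adjusted p = 0.0022). In all 3 genes every P5 library was above every embryo. Shh-dependent growth genes of the progenitors rose too. Mycn, an oncogene of the progenitors, was at 35.6, 42.2, 64.2, 46.8 and 63.04 CPM at E16.5 and 135, 81.1, 131, 76.8 and 83.8 CPM at P5 (log2 fold change 1.00, SE 0.20, adjusted p = 0.0037). Ccnd1, cyclin D1, was at 45.3, 45.9, 74.8, 38.7 and 55.8 CPM at E16.5 and 206, 124, 174, 113 and 132 CPM at P5 (log2 fold change 1.51, SE 0.20, adjusted p = 0.00033). Ccnd2, cyclin D2, was at 91.5, 109, 204, 116 and 114 CPM at E16.5 and 479, 209.9, 608, 451 and 402 CPM at P5 (log2 fold change 1.76, SE 0.28, adjusted p = 0.0011), and P5 replicate 2 was barely above E16.5 replicate 3. Barhl1, Meis1 and Cxcr4, with 0.40, -0.12 and 0.37, were not called.

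Genes of young granule neurons rose as well. Of 16, 13 were called higher and none lower, with a median of 0.96. Neurod1 (chr2:79452521-79456751), needed for granule neuron differentiation, was at 38.8, 44.6, 77.4, 46.6 and 54.5 CPM at E16.5 and 318, 159, 527, 293 and 207 CPM at P5 (log2 fold change 2.52, SE 0.30, adjusted p = 0.0002). Nhlh1, a factor of newly postmitotic neurons, was at 10.4, 12.7, 25.6, 16.52 and 17.7 CPM at E16.5 and 78.4, 44.1, 91.1, 42.3 and 39.4 CPM at P5 (log2 fold change 1.82, SE 0.28, adjusted p = 0.00089). Both separated the ages fully. The nuclear factor I genes Nfia, Nfib and Nfix, which drive granule neuron maturation, changed by 1.46, 1.49 and 1.55. Dcx, a microtubule protein gene of migrating neurons of all kinds, was at 1737, 1393, 1216, 1454 and 888 CPM at E16.5 and 995, 472, 1105, 785 and 837 CPM at P5 and did not pass the test (log2 fold change -0.70, SE 0.25, adjusted p = 0.068).

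Among 14 genes of mature granule neurons, 8 were called higher and none lower, with a median of 0.86. Fat2, a giant cadherin of granule cells, was at 15.2, 14.5, 26.97, 15.9 and 14.7 CPM at E16.5 and 182, 104, 307, 173 and 98.999 CPM at P5 (log2 fold change 3.30, SE 0.32, adjusted p = 6.2e-05). Slc17a7, the vesicular glutamate transporter of parallel fibres, was at 3.03, 3.18, 4.97, 3.42 and 3.79 CPM at E16.5 and 32.9, 52.8, 55.5, 37.2 and 17.8 CPM at P5 (log2 fold change 3.38, SE 0.28, adjusted p = 2.3e-05). The P5 libraries of both lay several-fold above every embryo. The GABA receptor subunit gene Gabra6, a late marker, was still rare at P5, at 1.10, 0.419, 0.428, 0.406 and 0.213 CPM at E16.5 and 1.79, 0.718, 7.62, 4.78 and 2.23 CPM at P5 (log2 fold change 2.72, SE 0.64, adjusted p = 0.0098), and P5 replicate 2 lay below E16.5 replicate 1. Median levels of Gabra6 later were 339 CPM at P13 and 763 CPM at P30+, and those of Fat2 were 991 CPM at P13 and 1574 CPM at P30+. Grin2c, Grm4, Vsnl1, Etv1, Kcnk9 and Calb2 ranged from 0.34 to 0.79 and were not called.

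**Figure D3:**
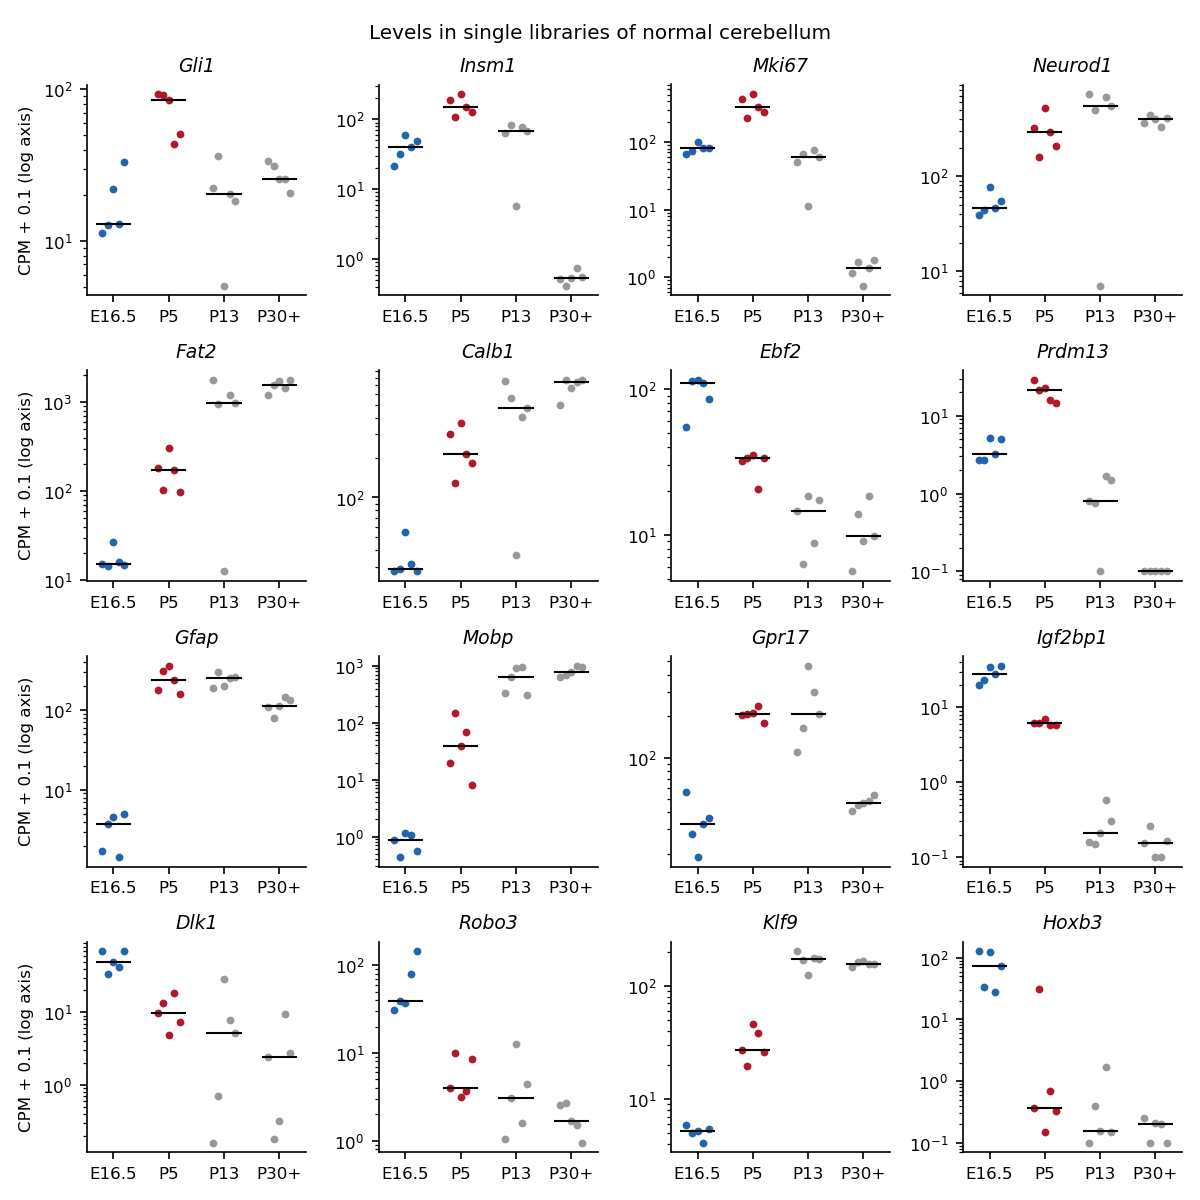
Level of 16 genes in single WT libraries at 4 ages (y axis, CPM + 0.1 on a log scale). Points are libraries, bars are medians, E16.5 is blue, P5 red and the later ages, which entered no test, grey. Mki67 and Prdm13 are highest at P5, Fat2, Mobp and Klf9 have higher medians at P13 than at P5, and 1 P13 library lies far below the other 4 in genes such as Neurod1 and Fat2.

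Purkinje cell genes split by stage. Of 15 genes of mature Purkinje cells, 11 were called higher and none lower, with a median of 1.13. Of 12 early Purkinje factors, 5 were called lower and 1 higher, with a median of -0.47. The count of 5 depended on the libraries, with 3 called without E16.5 replicate 2 or 4 or without any 1 of P5 replicates 1 to 4, and 2 called without the libraries of low mitochondrial share.

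Itpr1 (chr6:108213096-108551109), the calcium release channel of the Purkinje cell, was at 54.1, 27.3, 46.6, 24.6 and 46.99 CPM at E16.5 and 548, 367, 754, 609 and 424 CPM at P5 (log2 fold change 3.75, SE 0.28, adjusted p = 1.6e-05). Calb1, the calcium buffer calbindin, was at 27.996, 28.8, 54.5, 31.2 and 27.7 CPM at E16.5 and 301, 129, 367, 214 and 183 CPM at P5 (log2 fold change 2.80, SE 0.30, adjusted p = 8.8e-05). Car8, a partner of the Itpr1 channel, was at 30.6, 50.3, 87.5, 59.6 and 44.9 CPM at E16.5 and 397, 162, 485, 291 and 219 CPM at P5 (log2 fold change 2.50, SE 0.33, adjusted p = 0.00034). All 3 separated the ages, with P5 replicate 2 the lowest of its group. Pcp2, a Purkinje cell G-protein regulator, was at 2.82, 8.72, 12.1, 5.91 and 10.5 CPM at E16.5 and 36.3, 27.7, 71.1, 40.8 and 19.6 CPM at P5 (log2 fold change 2.28, SE 0.39, adjusted p = 0.0017). Slc1a6, Ppp1r17 and Stac were among those not called.

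The early factors that fell were led by Ebf2, which patterns Purkinje subtypes, with 54.3, 112, 115, 110.4 and 84.96 CPM at E16.5 and 31.9, 33.5, 35.4, 20.4 and 33.4 CPM at P5 (log2 fold change -1.64, SE 0.21, adjusted p = 0.00026). Bcl11a, a zinc finger gene of young neurons, was at 146, 190.0, 183, 165 and 130.1 CPM at E16.5 and 59.6, 76.6, 61.1, 48.7 and 73.2 CPM at P5 (log2 fold change -1.37, SE 0.15, adjusted p = 0.0001). Both were lower in every P5 library than in any embryo. Rora, the nuclear receptor needed for Purkinje cell maturation, was the member that rose, with 64.04, 70.4, 75.6, 64.1 and 48.5 CPM at E16.5 and 136, 87.1, 175, 126 and 128 CPM at P5 (log2 fold change 1.00, SE 0.19, adjusted p = 0.0029). Lhx5 and Esrrb were also called lower. Without the libraries of low mitochondrial share neither was called, with Lhx5 at -0.44 (adjusted p = 0.066) and Esrrb at -0.19 (adjusted p = 0.28). The Esrrb call was also lost in 8 of the 10 fits without 1 library (adjusted p from 0.054 to 0.11), all but those without E16.5 replicates 1 and 3. Foxp2, Skor2 and Dab1, at -0.85, -0.44 and -0.46, were not called.

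Most ventricular zone and proneural genes did not pass the test, while Ptf1a, Prdm13 and Kirrel2 rose. Of 16, 4 were called higher and 1 lower, with a median of 0.12. Ptf1a, the factor that specifies all GABA neurons of the cerebellum, was at 0.157, 0.335, 0.985, 0.927 and 0.936 CPM at E16.5 and 4.88, 3.59, 4.55, 2.82 and 3.69 CPM at P5 (log2 fold change 2.50, SE 0.38, adjusted p = 0.00076). Prdm13, a factor downstream of Ptf1a, was at 2.61, 2.60, 5.01, 3.07 and 4.89 CPM at E16.5 and 28.8, 21.3, 22.5, 15.96 and 14.6 CPM at P5 (log2 fold change 2.48, SE 0.24, adjusted p = 5.1e-05). Kirrel2, an adhesion molecule gene controlled by Ptf1a elsewhere in the nervous system, was at 6.22, 8.63, 12.6, 10.3 and 15.9 CPM at E16.5 and 75.5, 38.2, 59.4, 41.2 and 37.2 CPM at P5 (log2 fold change 2.22, SE 0.25, adjusted p = 0.00014). The 3 genes separated the ages. At P13, untested here, their medians were 0.117, 0.704 and 2.28 CPM. The fourth call, Olig2 at 0.65, is shared with the oligodendrocyte list and was lost without any 1 of E16.5 replicates 2, 3 and 4 and P5 replicates 2 and 4 (adjusted p from 0.05 to 0.063). Dll1, a Notch ligand gene, was the member called lower, at -0.59. Pax2, which marks interneuron precursors, was at 93.7, 46.1, 91.6, 45.96 and 84.1 CPM at E16.5 and 56.6, 66.9, 52.9, 37.9 and 27.99 CPM at P5 and was not called (log2 fold change -0.61, SE 0.25, adjusted p = 0.1). In the list of 15 inhibitory interneuron genes, 1 was called higher and 1 lower (Lhx5), with a median of -0.03, and without 1 library 0 to 1 were called higher.

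The largest rises of single list members were glial, with 6.27 for Gfap and 6.20 for the myelin gene Mobp. Of 16 astrocyte and Bergmann glia genes, 11 were called higher and none lower, with a median of 1.10. Gfap (chr11:102887336-102900912), the intermediate filament of astrocytes, was at 1.62, 3.60, 4.45, 1.33 and 4.89 CPM in the 5 E16.5 libraries and 179, 314, 362, 237 and 159 CPM in the 5 P5 libraries (log2 fold change 6.27, SE 0.38, adjusted p = 4.4e-06). The ages were far apart, with every embryo in single digits. Aqp4, the water channel of astrocyte endfeet, was at 42.99, 27.6, 18.6, 35.1 and 28.4 CPM at E16.5 and 491, 344, 684, 587 and 427 CPM at P5 (log2 fold change 4.03, SE 0.27, adjusted p = 8.6e-06). S100b, a calcium-binding protein of glia, was at 3.87, 2.26, 2.91, 3.88 and 6.55 CPM at E16.5 and 33.8, 57.2, 32.9, 39.6 and 16.54 CPM at P5 (log2 fold change 3.17, SE 0.32, adjusted p = 6.8e-05).

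Gdf10, a marker of Bergmann glia, was at 20.1, 23.3, 50.3, 21.4 and 33.2 CPM at E16.5 and 214, 126, 229.9, 127 and 108 CPM at P5 (log2 fold change 2.43, SE 0.29, adjusted p = 0.00018). Slc1a3, the glutamate transporter GLAST, was already abundant in the embryo, at 421, 304, 325, 354 and 407 CPM at E16.5 and 1428, 816, 1289, 944 and 827 CPM at P5 (log2 fold change 1.53, SE 0.18, adjusted p = 0.00019). Fabp7, the gene of Blbp, which marks radial and Bergmann glia and names the cells altered elsewhere in the series, was at 565, 349, 433, 574 and 661 CPM at E16.5 and 788, 836, 643, 602 and 575 CPM at P5 and did not pass the test (log2 fold change 0.40, SE 0.16, adjusted p = 0.1). Radial glia genes, a list that shares Slc1a3 and Pax6 with others, had 3 of 12 called higher and a median of 0.20. Nes and Vim, intermediate filaments of progenitors, were at -0.40 and 0.22 and were not called.

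Oligodendrocyte genes of the precursor and the myelin stage rose. Of 10 precursor genes, 9 were called higher, with a median of 1.38. Of 10 tested myelin genes, 8 were called higher, with a median of 2.38, and Mog and Opalin had too few counts to test. Pdgfra, the growth factor receptor of precursors, was at 118, 66.96, 80.1, 54.9 and 95.7 CPM at E16.5 and 223, 203, 170.2, 230.0 and 192 CPM at P5 (log2 fold change 1.27, SE 0.19, adjusted p = 0.00069). Gpr17, a receptor of cells about to differentiate, was at 55.9, 27.7, 18.8, 32.9 and 35.97 CPM at E16.5 and 205, 206, 210.0, 236 and 179 CPM at P5 (log2 fold change 2.57, SE 0.25, adjusted p = 5.5e-05). Enpp6, which marks newly forming oligodendrocytes, was at 0.940, 0.251, 0.0428, 1.10 and 0.426 CPM at E16.5 and 13.6, 12.9, 18.02, 24.1 and 9.89 CPM at P5 (log2 fold change 4.81, SE 0.53, adjusted p = 0.00011). Pdgfra and Gpr17 were even across the P5 libraries.

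The myelin genes were not even. Mbp, myelin basic protein, was at 58.8, 43.99, 57.5, 51.5 and 53.1 CPM at E16.5 and 322, 1480.3, 446, 572 and 172 CPM at P5 (log2 fold change 3.44, SE 0.46, adjusted p = 0.00035). Mobp, a late myelin protein gene, was at 0.783, 0.335, 1.07, 0.985 and 0.468 CPM at E16.5 and 19.4, 150.4, 39.3, 69.98 and 7.99 CPM at P5 (log2 fold change 6.20, SE 0.77, adjusted p = 0.00023). P5 replicate 2 was the highest and replicate 5 the lowest for both. That high library is the one with hindbrain Hox reads, and the part of neighbouring tissue in its myelin level was not tested. Without it the median of the myelin list was 2.19, and the number called was unchanged at 8. Later medians of Mobp were 649.7 CPM at P13 and 793 CPM at P30+.

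Of 12 microglia genes, 6 were called higher and none lower, with a median of 0.84. Trem2, a lipid-sensing receptor, was at 1.83, 2.18, 2.53, 1.91 and 3.32 CPM at E16.5 and 7.53, 7.95, 8.34, 7.15 and 4.25 CPM at P5 (log2 fold change 1.56, SE 0.22, adjusted p = 0.0005). Without the 4 Hox-rich libraries, 11 of the 12 were called, with a median of 1.49. In the endothelial list, 2 of 12 were called higher (Slco1c1, a thyroid hormone carrier, at 1.22, and the efflux pump gene Abcb1a) and 1 lower (Slc2a1, the glucose transporter, at -0.61). Without the Hox-rich libraries 5 were called higher and Slc2a1 was not called, at -0.34 (adjusted p = 0.18). None of the 10 pericyte and smooth muscle genes, 12 meningeal genes or 11 choroid plexus genes was called by edgeR. At an unadjusted p under 0.05 the counts were 1, 0 and 0, and DESeq2 called 1, 0 and 0. Without the Hox-rich libraries edgeR called 1 pericyte and smooth muscle gene and 1 meningeal gene higher. Ttr, the main choroid plexus gene, was at 1419, 21.5, 2991, 2.72 and 4381 CPM at E16.5 and 12.8, 3184, 6.33, 2518 and 25.6 CPM at P5. High and low libraries occurred at both ages. Red blood cell genes fell, with 5 of 6 tested called lower and a median of -1.88, but edgeR called 0 without the 4 Hox-rich libraries (2 at an unadjusted p under 0.05), where the median was -0.74. Globin genes have near-identical copies, so the split between them is uncertain.

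**Figure D4:**
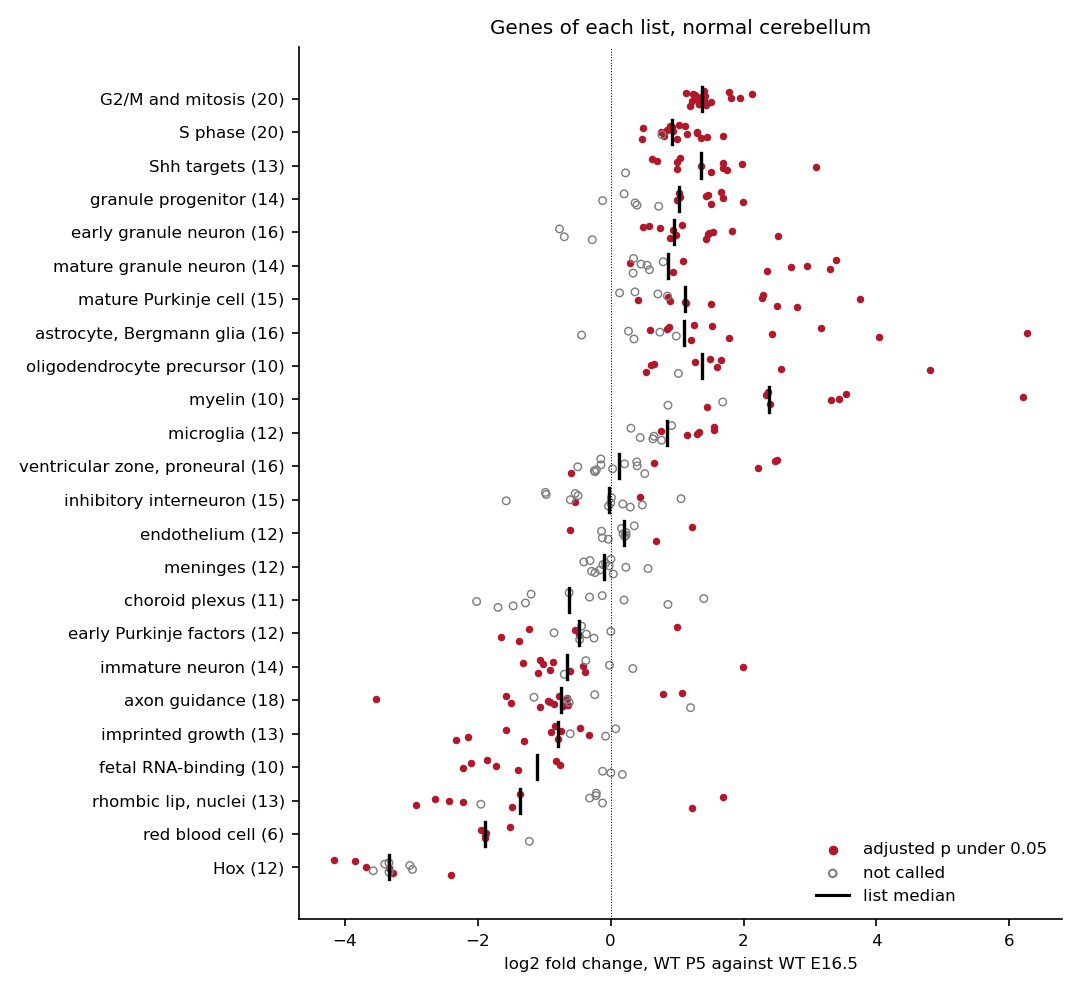
Log2 fold change of every tested gene in 24 lists (x axis, P5 against E16.5, with the number tested after each name). Filled red points are called, open points are not, and the bar is the list median. The mitosis list has all 20 points filled to the right of 0, and the glial and myelin lists reach furthest to the right.

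Genes of immature neurons fell. Of 14, 9 were called lower and 1 higher (Insm1, described above), with a median of -0.65. Sox4, a factor of postmitotic neuron differentiation, was at 405, 658, 600.4, 488 and 369 CPM at E16.5 and 248, 139, 224, 191 and 222 CPM at P5 (log2 fold change -1.32, SE 0.21, adjusted p = 0.0011). Tubb3, the neuronal beta-tubulin gene, was at 1550.1, 1474, 1372, 1300.2 and 1157 CPM at E16.5 and 608, 684, 542, 689 and 822 CPM at P5 (log2 fold change -1.06, SE 0.16, adjusted p = 0.00078). Neither gene overlapped between the ages. Sox11, Gap43, a growth cone protein gene, and Stmn1 changed by -1.01, -0.91 and -0.87. The Sox11 call was lost in 6 of the 10 fits without 1 library (adjusted p from 0.051 to 0.1), all but those without E16.5 replicate 5 and P5 replicates 2, 3 and 5.

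Axon guidance genes fell too, with 11 of 18 called lower and 2 higher, and a median of -0.75. Robo3, which lets commissural axons cross the midline, was at 30.7, 38.9, 36.98, 80.2 and 144 CPM at E16.5 and 3.90, 9.79, 3.07, 3.57 and 8.32 CPM at P5 (log2 fold change -3.53, SE 0.48, adjusted p = 0.00039). The highest P5 library was well below the lowest embryo. Slit1 and Nrp2, a repellent and a semaphorin receptor, changed by -1.57 and -1.50. Unc5b and Unc5c, netrin receptor genes, were the 2 called higher. The Unc5b call was lost without any 1 of E16.5 replicates 2 and 4 and P5 replicates 1, 3 and 4 (adjusted p from 0.054 to 0.068), and without the libraries of low mitochondrial share, at 0.79 (adjusted p = 0.06). Unc5c, at 1.07, belongs to the early granule neuron list too.

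Fetal RNA-binding genes fell. This list holds Lin28 genes, which block the maturation of let-7 microRNAs, and genes known as let-7 targets. Of 10, 7 were called lower and none higher, with a median of -1.11. Igf2bp1 (chr11:95957163-96005940), an mRNA-binding protein gene, was at 20.005, 23.3, 34.2, 27.9 and 36.1 CPM in the 5 E16.5 libraries and 6.05, 6.10, 6.85, 5.74 and 5.81 CPM in the 5 P5 libraries (log2 fold change -2.22, SE 0.15, adjusted p = 9.3e-06). The P5 values were almost equal, and far below all embryos. Lin28b was at 35.2, 35.4, 27.7, 46.4 and 39.3 CPM at E16.5 and 14.7, 27.1, 14.8, 22.3 and 27.2 CPM at P5 (log2 fold change -0.82, SE 0.21, adjusted p = 0.014), and Lin28a was rare, at 0.679, 1.17, 1.54, 1.33 and 0.851 CPM at E16.5 and 0.234, 0.205, 0.479, 0.252 and 0.112 CPM at P5 (log2 fold change -2.09, SE 0.39, adjusted p = 0.0025). The Lin28b call was lost without the 3 libraries of low mitochondrial share, at -0.78 (adjusted p = 0.062). Hmga2, a chromatin protein gene of fetal progenitors, was at 6.32, 7.04, 13.998, 12.8 and 14.2 CPM at E16.5 and 5.19, 4.56, 4.17, 3.93 and 2.85 CPM at P5 (log2 fold change -1.40, SE 0.24, adjusted p = 0.0017). Trim71, Igf2bp2 and Igf2bp3 changed by -1.85, -1.72 and -0.76, and Hmga1, E2f5 and Arid3a were not called. The Trim71 call was lost without the libraries of low mitochondrial share, at -1.82 (adjusted p = 0.085), and without the Hox-rich ones, at -1.66 (adjusted p = 0.15). Igf2bp3 was at -0.65 (adjusted p = 0.056) without the Hox-rich libraries. In both of these fits 5 of the list were called lower. Median levels of Igf2bp1 later were 0.109 CPM at P13 and 0.0521 CPM at P30+.

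The let-7 family and its matches are shown because the list was drawn up around them. The mature RNAs from RefSeq (GRCm38.p6) share 1 seed (bases 2 to 8, in capitals).
let-7a-5p (chr13:48538239-48538260, - strand): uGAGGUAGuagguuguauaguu
let-7b-5p (chr15:85707325-85707346, + strand): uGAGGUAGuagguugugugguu
let-7c-5p (chr15:85706616-85706637, + strand): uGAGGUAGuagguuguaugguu
The match to that seed, CTACCTC, was searched on the transcribed strand of the GENCODE M21 3' UTRs. Every gene of the list held the match, also Hmga1 (1 site), E2f5 (1 site) and Arid3a (2 sites), which were not called. The sites below were picked from genes called lower. Each is 23 bases long with the match in capitals.
Igf2bp1 (chr11:95961778-95961800, - strand): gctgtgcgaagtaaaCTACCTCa
Lin28a (chr4:134005189-134005211, - strand): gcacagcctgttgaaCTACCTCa
Lin28b (chr10:45381022-45381044, - strand): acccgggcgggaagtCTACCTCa
Hmga2 (chr10:120364224-120364246, - strand): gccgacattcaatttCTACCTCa
Trim71 (chr9:114512472-114512494, - strand): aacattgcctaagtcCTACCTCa
Igf2bp2 (chr16:22059473-22059495, - strand): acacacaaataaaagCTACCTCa
Of 27 windows of 1000 bases in the 3' UTRs of the list, 16 held the match, against 6.48% of 21983 windows of all coding genes. Since the list was named for let-7 targets, that share is no independent result. The hairpin genes Mirlet7b and Mirlet7c-2, on chromosome 15, had too few counts to test, and were picked after their counts had been seen. Mirlet7b had 6 reads in all over the E16.5 libraries and 118 over the P5 libraries, and Mirlet7c-2 had 3 and 59. Mature microRNA was not measured.

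Imprinted growth genes fell as well. Of 13, 10 were called lower and none higher, with a median of -0.79. Dlk1, a paternally expressed Notch-like ligand gene, was at 69.2, 34.1, 50.04, 42.3 and 68.8 CPM at E16.5 and 9.79, 13.2, 4.84, 18.4 and 7.21 CPM at P5 (log2 fold change -2.33, SE 0.32, adjusted p = 0.00046). H19, a maternally expressed long non-coding RNA gene, was at 234, 233, 680.2, 39.3 and 503 CPM at E16.5 and 88.6, 116, 37.9, 70.4 and 70.3 CPM at P5 (log2 fold change -2.15, SE 0.55, adjusted p = 0.015), with E16.5 replicate 4 below 4 of the P5 libraries. That embryo also had the lowest meningeal level, 118 CPM against 1006 to 2344 CPM in the other 4. The part of meninges in the H19 level was not tested. Without the 4 Hox-rich libraries, 4 of the 13 were called and H19 was not, at -1.12. Mest was called at -0.90 with all libraries, but without the Hox-rich ones it was at -0.15 (adjusted p = 0.56). Peg10 changed by -1.58, whereas Igf2 (-0.08) and Peg3 (0.08) were not called.

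Several of the steepest falls were in genes of other hindbrain and brainstem regions. Of 12 tested Hox genes, 6 were called lower, with a median of -3.33. Hoxb3 was at 127, 33.8, 122, 27.9 and 73.4 CPM at E16.5 and 0.273, 31.3, 0.0479, 0.604 and 0.223 CPM at P5 (log2 fold change -3.67, SE 1.20, adjusted p = 0.045). P5 replicate 2 lay within the E16.5 range and the other 4 P5 libraries at or below 0.604 CPM. Without that library all 12 were called and the median was -8.27, whereas without any other single library 1 to 5 were called, the fewest without P5 replicate 1 or 4. The Hoxb3 call was lost in 9 of the 10 fits without 1 library (adjusted p from 0.053 to 0.091), all but that without P5 replicate 2. Without the Hox-rich libraries, or without those of low mitochondrial share, 11 had enough counts to test and all 11 were called. Isl1, a motor neuron factor, was at 16.04, 12.2, 2.70, 16.9 and 13.1 CPM at E16.5 and 0.585, 1.49, 0, 0.705 and 0.391 CPM at P5 (log2 fold change -4.30, SE 0.66, adjusted p = 0.00083), lower in every P5 library. Hox genes are silent in the cerebellar territory as background, and how much brainstem each dissection held was not tested. Tissue taken at dissection and change within the cerebellum cannot be told apart for these genes.

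In the list of rhombic lip, unipolar brush cell and cerebellar nuclei factors, 6 of 13 were called lower and 2 higher, with a median of -1.37. Meis2, a factor of cerebellar nuclei neurons that brainstem neurons also express, was at 401, 383, 239, 418 and 344 CPM at E16.5 and 27.6, 121, 22.9, 60.7 and 106 CPM at P5 (log2 fold change -2.43, SE 0.42, adjusted p = 0.0018). Lhx2, Olig3, Lmx1b, Irx3 and Tbr1 were the others called lower, at -2.92, -2.64, -2.22, -1.49 and -1.37. Eomes, which marks unipolar brush cells, was called higher, at 1.23, and Pax6 was described above. Several of these calls depended on the libraries. The Eomes call was lost in 8 of the 10 fits without 1 library (adjusted p from 0.054 to 0.11), all but those without E16.5 replicate 3 and P5 replicate 5, and without the libraries of low mitochondrial share, at 1.34 (adjusted p = 0.12). Tbr1 was lost in 8 of the 10 fits without 1 library (adjusted p from 0.054 to 0.1), all but those without E16.5 replicate 1 and P5 replicate 4, and it was at -1.25 (adjusted p = 0.062) without the Hox-rich libraries and -1.06 (adjusted p = 0.15) without those of low mitochondrial share. Lhx2 was lost without any 1 of E16.5 replicate 2 and P5 replicates 3 and 4 (adjusted p from 0.051 to 0.058), and was at -3.17 (adjusted p = 0.062) without the libraries of low mitochondrial share. Olig3 was at -2.14 (adjusted p = 0.069) without the Hox-rich libraries. Among 9 tested midbrain genes, 1 was called higher and 2 lower (Gata2 at -2.02 and Nr4a2 at -1.10). The higher one was Slc6a3 (4.46), which was high in P5 replicate 4 alone. The Slc6a3 call was lost in 6 of the 10 fits without 1 library (adjusted p from 0.069 to 0.65), all but those without P5 replicates 1, 2, 3 and 5, and the gene was at 4.13 (adjusted p = 0.23) and 5.17 (adjusted p = 0.1) without the Hox-rich libraries and those of low mitochondrial share. Nr4a2 was lost in 8 of the 10 fits without 1 library (adjusted p from 0.069 to 0.11), all but those without E16.5 replicate 3 and P5 replicate 4, and was at -1.24 (adjusted p = 0.098) and -0.83 (adjusted p = 0.26) in the same pair of fits.

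Genes that inactivate and activate thyroid hormone moved in opposite directions. The hormone times cerebellar maturation, and 12 genes of its handling and response gave 5 calls upward and 1 downward, with a median of 0.52. Dio3, the enzyme that inactivates the hormone, was at 2.30, 2.60, 2.48, 3.42 and 2.43 CPM at E16.5 and 0.429, 0.769, 0.192, 0.403 and 0.223 CPM at P5 (log2 fold change -2.72, SE 0.33, adjusted p = 0.0002). Dio2, the enzyme that activates it, was at 0.575, 0.419, 0.599, 0.290 and 0.724 CPM at E16.5 and 5.07, 4.05, 9.06, 6.14 and 4.805 CPM at P5 (log2 fold change 3.43, SE 0.31, adjusted p = 3.7e-05). Klf9, a direct target of the receptor, was at 5.75, 4.94, 5.09, 3.999 and 5.28 CPM at E16.5 and 26.8, 19.3, 45.9, 37.9 and 25.8 CPM at P5 (log2 fold change 2.62, SE 0.24, adjusted p = 4.5e-05). These 3 genes did not overlap between ages. Thrb, the beta receptor gene, was at 3.29, 3.02, 3.98, 3.59 and 2.60 CPM at E16.5 and 6.36, 6.92, 7.14, 9.26 and 8.66 CPM at P5 (log2 fold change 1.20, SE 0.19, adjusted p = 0.0011), and Thra, the alpha receptor gene, was at -0.20 and was not called. Mbp, which belongs to the same list, was described with myelin. Dio2 went on to median levels of 61.5 CPM at P13 and 34.5 CPM at P30+, and Klf9 to 171 CPM at P13 and 156 CPM at P30+.

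Channel genes rose more often than synaptic ones, a difference that was not tested. Of 17 voltage-gated channel genes, 9 were called higher and 1 lower, with a median of 0.43. The sodium channel subunit gene Scn4b and the potassium channel genes Kcna1 and Kcna2, which serve mature firing, changed by 2.30, 2.15 and 1.72. Of 20 synaptic machinery genes, 5 were called higher and 1 lower (Shank1), with a median of 0.06. Without the Hox-rich libraries, or without those of low mitochondrial share, 3 were called higher, and Shank1 was at -0.70 (adjusted p = 0.052) in the second of these fits. Sv2b, a synaptic vesicle protein gene, gave the largest of these, 1.42, while Syn1 and Snap25, at 0.01 and 0.17, were not called. Of 11 NMDA and AMPA receptor genes, 1 was called higher (Gria1), a call that was lost without P5 replicate 1 (adjusted p = 0.053). Of 15 GABA receptor and chloride transporter genes, 4 were called higher, and Slc12a5, the chloride exporter gene KCC2, was at -0.04.

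Of 16 cholesterol synthesis genes, 6 were called lower and 1 higher (Insig1), with a median of -0.27, and the lowest was Fdps at -0.72. The Insig1 call was lost without any 1 of E16.5 replicates 3 and 5 and P5 replicates 1, 3 and 4 (adjusted p from 0.061 to 0.078), and without the Hox-rich libraries, at 0.22 (adjusted p = 0.15). Of 16 glycolysis genes, 2 were called higher (Hk2 and Ldhb), with a median of 0.10. The Ldhb call was lost without any 1 of E16.5 replicates 2, 4 and 5 and P5 replicate 2 (adjusted p from 0.055 to 0.071), and it was at 0.31 (adjusted p = 0.057) without the Hox-rich libraries and 0.20 (adjusted p = 0.14) without those of low mitochondrial share. Hk2, hexokinase 2, a target of Shh signalling in granule progenitors, was at 6.999, 6.54, 9.37, 6.26 and 7.49 CPM at E16.5 and 27.7, 15.2, 15.4, 16.1 and 13.2 CPM at P5 (log2 fold change 1.23, SE 0.20, adjusted p = 0.0013), with P5 replicate 1 far above the rest. None of 11 heat shock and unfolded protein genes was called by edgeR (2 at an unadjusted p under 0.05, 1 by DESeq2), and their median was -0.04. Without the Hox-rich libraries edgeR called 1 higher.

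Of 14 tested Wnt target genes, 4 were called higher and 1 lower, Dkk1, a secreted Wnt inhibitor, at -3.74. Of 11 tested immediate early genes, 2 were called higher (Fos at 1.90 and Ier2 at 0.83) and 1 lower (Npas4 at -1.39). The Ier2 call was lost in 7 of the 10 fits without 1 library (adjusted p from 0.065 to 0.094), all but those without E16.5 replicates 3 and 5 and P5 replicate 5. Without the libraries of low mitochondrial share Ier2 was at 0.71 (adjusted p = 0.13) and Npas4 at -1.46 (adjusted p = 0.059). Of 8 tested interferon response genes, 2 were called higher with all libraries, Ddx58 among them, and 0 to 1 in the fits without 1 library. The Ddx58 call was lost in each of the 10 fits without 1 library (adjusted p from 0.058 to 0.12), and without the Hox-rich libraries, at 0.49 (adjusted p = 0.15), or those of low mitochondrial share, at 0.45 (adjusted p = 0.16). Of 8 tested genes of cartilage, bone and muscle, 2 were called higher (Acan and Col9a1), and Acan was at 1.32 (adjusted p = 0.16) without the Hox-rich libraries. Of 17 replication-type and other histone genes, 4 had enough counts to test, and 1 of them, Hist1h1c, was called higher at 1.09. That call was lost in 7 of the 10 fits without 1 library (adjusted p from 0.066 to 0.096), all but those without E16.5 replicates 3 and 5 and P5 replicate 5, and without the libraries of low mitochondrial share, at 1.10 (adjusted p = 0.083). Ddx3x, the RNA helicase gene that is altered in other groups of the series, was at 428, 418, 387, 466 and 324 CPM at E16.5 and 568, 337, 558, 422 and 447 CPM at P5 and did not pass the test (log2 fold change 0.19, SE 0.17, adjusted p = 0.49).

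Outside the lists, the 15 largest rises among called, annotated genes with a mean log2 CPM of 1 or more were led by Mybpc3. This gene of a muscle myosin-binding protein was at 0.157, 0.335, 0.257, 0.290 and 0.128 CPM at E16.5 and 13.4, 9.33, 33.6, 18.4 and 9.05 CPM at P5 (log2 fold change 6.19, SE 0.49, adjusted p = 2.0e-05), and its median later was 220.4 CPM at P13 and 122 CPM at P30+. Tbata was second, at 0.366, 0, 1.11, 0.232 and 0.426 CPM at E16.5 and 30.4, 25.3, 24.2, 18.2 and 15.9 CPM at P5 (log2 fold change 5.57, SE 0.46, adjusted p = 2.3e-05). Gpr37l1, a glial receptor that acts on Shh signalling in Bergmann glia, came next, at 2.35, 1.26, 2.40, 1.56 and 1.958 CPM at E16.5 and 81.5, 84.6, 116, 90.9 and 58.5 CPM at P5 (log2 fold change 5.45, SE 0.22, adjusted p = 2.0e-07). No embryo exceeded 2.40 CPM for any of the 3. The others were Neu4, Ltbp2, Gckr, Agt, Itpka, Dnah3, Pllp, Mndal, C4b, Grid2ip, Zfp385c and Il33, from 5.26 down to 3.51. Some were near the floor in the embryos, such as Gckr, at 0 to 0.383 CPM, and Dnah3, at 0 to 0.468 CPM. Such genes reached the mean level asked for through their P5 values. Agt, angiotensinogen, and Il33, an alarmin, are made by glia, Neu4 and Pllp are expressed by oligodendrocytes, and Grid2ip and Itpka are synaptic genes. C4b, a complement component, was at 0.836, 0.838, 1.16, 0.985 and 1.62 CPM at E16.5 and 10.8, 13.7, 18.98, 15.9 and 11.96 CPM at P5 (log2 fold change 3.68, SE 0.23, adjusted p = 5.6e-06). Mndal was at 0.103 CPM in P5 replicate 2 and at 11.3 to 22.5 CPM in the other 4 P5 libraries. E16.5 replicate 1 was at 0.104 CPM and the other embryos at 0.809 to 1.58 CPM. At P13 Mndal was at 0.176, 31.3, 0.0547, 0 and 0 CPM, so its level varied widely between libraries of 1 age.

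The 15 largest falls outside the lists were mostly homeobox and other factors of brainstem and spinal neurons, among them Dbx1, Isl1, Tbx20, Nkx6-1, Msx3, Otp, Pax8 and Evx1, with the antisense genes Hoxaas2, Hoxb3os and Evx1os, and with Rn7sk and Lgals7. The change in Dbx1 was -4.67. In Dbx1, Rn7sk, Tbx20, Otp and Hoxb3os the ages overlapped, and apart from Dbx1 these calls depended on the libraries. Otp was lost in 8 of the 10 fits without 1 library (adjusted p from 0.057 to 0.099), all but those without E16.5 replicate 3 and P5 replicate 4, and was at -3.20 (adjusted p = 0.092) without the Hox-rich libraries and -2.07 (adjusted p = 0.29) without those of low mitochondrial share. Rn7sk was lost in 6 of the 10 fits without 1 library (adjusted p from 0.066 to 0.45), all but those without E16.5 replicates 1, 2, 3 and 5, and was at -0.64 (adjusted p = 0.53) without the libraries of low mitochondrial share. Tbx20 was lost in 6 of the 10 fits without 1 library (adjusted p from 0.051 to 0.058), all but those without E16.5 replicates 3, 4 and 5 and P5 replicate 2. Hoxb3os was lost without any 1 of E16.5 replicate 5 and P5 replicates 1, 3 and 4 (adjusted p from 0.05 to 0.063). Rn7sk, a small nuclear RNA gene, rested on a single embryo at 58.1 CPM against 0.471 to 2.68 CPM in the other 4. Msx3, a factor of the dorsal neural tube, was at 4.34, 3.77, 5.69, 2.72 and 5.70 CPM at E16.5 and 0.663, 0.513, 0.911, 0.252 and 0.223 CPM at P5 (log2 fold change -3.10, SE 0.36, adjusted p = 0.00016). Mmp9, a matrix protease gene outside these 15 that was chosen after its values had been seen, was at 29.1, 39.9, 31.4, 29.3 and 34.2 CPM at E16.5 and 4.21, 10.6, 3.64, 4.08 and 6.48 CPM at P5 (log2 fold change -2.53, SE 0.26, adjusted p = 8.7e-05), with no overlap.

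The same step could be read in a genotype that shares no library with WT. BPtch is the Shh model of the series, without a Ddx3x alteration, and has 5 libraries at each age. The labels used here do not say what drives the allele. Its E16.5 libraries all share 1 title number. If that number marks a litter, the tests that use BPtch hold no spread between litters at E16.5. P5 replicates 2 and 3 stood apart: their granule progenitor list summed to 328 and 682 CPM against 1373 to 2689.7 CPM in the other 3. Their mature Purkinje list summed to 508 and 584 CPM against 1006 to 1804 CPM, and their midbrain list was the highest of the group, at 247 and 241 CPM. Each result is given with and without them. Sample titles pass through the alphabet in runs, and what a run means is not stated. P5 replicates 2 and 3 are in run 3, and P5 replicates 1, 4 and 5 in run 4. All BPtch libraries are in runs 3 and 4, and the WT E16.5 and P5 libraries in runs 1 and 2. Genotype and run therefore cannot be told apart in the test of the difference.

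With all 10 BPtch libraries, 2653 of 18681 genes (14.2%) were called higher at P5 and 2197 (11.8%) lower. Without the 2 libraries, 2525 of 19132 (13.2%) were called higher and 1960 (10.2%) lower. In the mitosis list, with all libraries, edgeR and DESeq2 each called 0 of 20 genes in BPtch, and 0 had an unadjusted p under 0.05 (median 0.55), and without the 2 all 20 were called higher (median 1.07). Mki67 in BPtch was at 112, 167, 152, 137 and 111 CPM at E16.5 and 559.5, 45.5, 80.9, 183 and 422 CPM at P5, where replicates 2 and 3 lay below every BPtch embryo and the other 3 above. Shh targets gave 4 of 13 calls with them and 11 of 13 without them. The 2 libraries were left out after the data had been seen. In the mitosis list they summed to 272 and 440 CPM against 955 to 2396 CPM in the other 3. In the Shh target list they summed to 404 and 530 CPM against 854 to 1687 CPM. More calls in these lists without them are therefore no independent result.

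Glial and fetal genes had the same direction with and without those libraries. Gfap in BPtch changed by 6.33 with all libraries and 6.10 without the 2, beside 6.27 in WT. Mobp changed by 5.75 and 5.16, beside 6.20. Igf2bp1 changed by -3.46 and -2.99, beside -2.22, and Hmga2 by -2.66 and -2.41, beside -1.40.

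Of the 1046 genes called at least 2-fold higher in WT, 636 were so in BPtch without the 2 libraries, which is 60.8% of the WT genes and 68.2% of the 933 BPtch genes. Downward, 224 were shared, 46.2% of the 485 WT genes and 39.1% of the 573 BPtch genes. With all BPtch libraries, 431 were shared upward (41.2% of the WT and 45.1% of the BPtch genes) and 159 downward (32.8% and 32.7%). The 2 libraries were left out after the data had been seen, so the larger shares without them are no independent result.

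The test of the difference between genotypes called 3 of 19352 genes (0.0155%), all of them named here because they are so few. Akr1b8, an aldo-keto reductase gene, fell in WT and differed by 1.88 (log2, BPtch minus WT, adjusted p = 0.035). The predicted genes Gm5089 and C030037D09Rik differed by -8.90 and -1.92. An unadjusted p under 0.05 was found for 3082 genes (15.9%), and DESeq2 called 61. Without the 2 BPtch libraries, edgeR called 0 of 19822 genes. An unadjusted p under 0.05 was found for 963 of them (4.86%), near the share that this threshold passes by chance. For Gli1 the difference without them was -0.40 (SE 0.38) and for Mki67 -0.60 (SE 0.36). Neither was called, which does not show that the genotypes were alike.

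**Figure D5:**
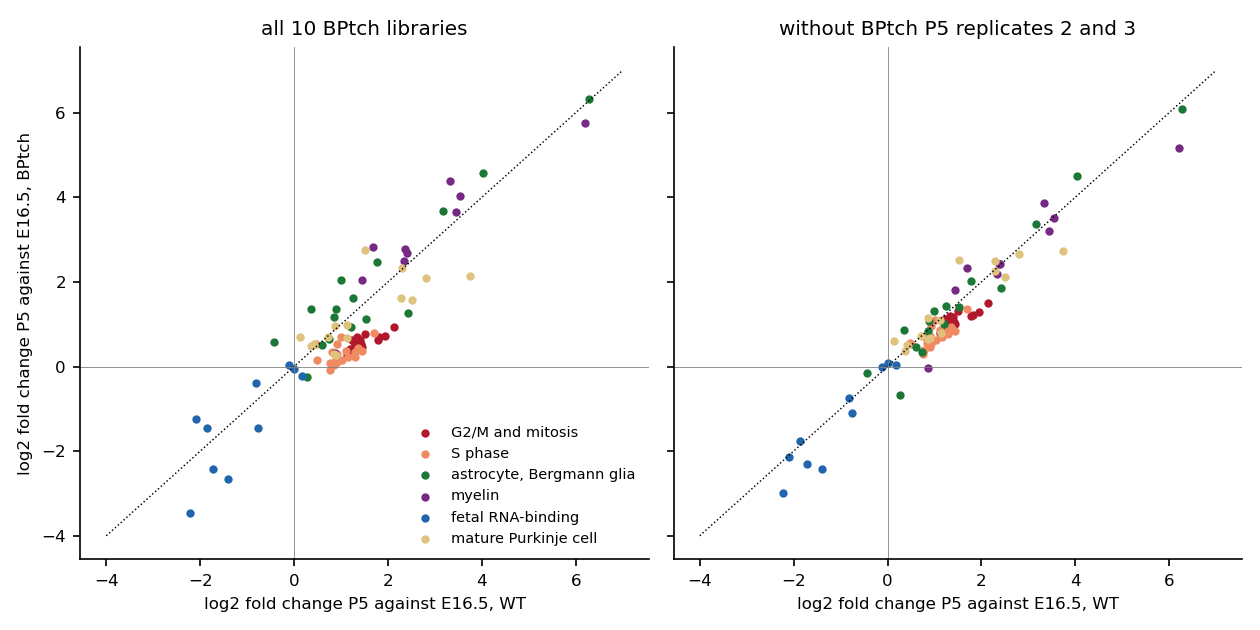
Log2 fold change from E16.5 to P5 of the genes of 6 lists in WT (x axis) and BPtch (y axis), with all 10 BPtch libraries on the left and without P5 replicates 2 and 3 on the right. The dotted line marks equal change. Mitosis genes lie well below the line on the left and closer to it on the right, and Gfap is at about 6 on both axes in both panels.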

How the data were processed

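RNA was extracted from cerebella with Trizol, per the labels' protocols. The authors aligned reads with HISAT2 to GRCm38 and counted them with featureCounts, per the submitters' processing notes. Versions, strand setting and annotation: not given in the sources used here. The deposited values are raw counts per Ensembl gene (32075 genes), and 31759 identifiers matched GENCODE M21, from which symbols and GRCm38 coordinates were taken.

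Counts were tested with edgeR 4.0.16 in R 4.3.3 (quasi-likelihood test, TMM scaling, filterByExpr with a minimum count of 10, Benjamini-Hochberg adjustment over all genes tested), on the 10 WT libraries, on the 10 BPtch libraries, and on all 20 for the difference. Tests are two-sided. SE is the fold change divided by the root of F. Depth was 11933207 to 25640752 counts in WT and 18675459 to 30204849 in BPtch. In simulated counts for the WT comparison (18152 genes), 154 of 200 changed genes were recovered with 6 false calls. The 200 were changed by at least 2-fold and had a mean above 1 CPM. Far more genes were called in the data, most of them under 2-fold, so these figures are not its error rates. No pair of WT libraries of 1 age agreed within sampling noise.

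The groups and the 45 gene lists were chosen with earlier results of these data known. Any list member could be named, along with the 15 largest rises and 15 largest falls of called, annotated genes whose mean log2 CPM was 1 or more. Some genes that are counted are not reported here by name. Alternatives were DESeq2 1.42.0, other scalings and filters, leaving libraries out, the replicate block, sex (from Xist and Y-linked genes), the order of the titles, and all 20 WT libraries in 1 fit. Another summed the counts of E16.5 replicates 2 and 3, which share a title number. Leaving out Hox-rich libraries, libraries of low mitochondrial share or BPtch P5 replicates 2 and 3 was chosen after seeing the data. Replicate numbers come from the sample type label, which for 1 BPtch P5 library differs from its replicate tag.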

Additional observations from a re-analysis of the deposited data

Results flagged for a closer look

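Among 246 groups of 5 WT libraries examined, 17 held a library whose gap to the next exceeded Dixon's 95% limit, where chance flags about 1 in 20. P5 replicate 2 stood apart in 4 of them. Its Hox list summed to 193 CPM against 0.391 to 3.78 CPM in the other 4, and Hoxb3 was at 31.3 CPM against 0.0479 to 0.604 CPM. Its thyroid list, which holds Mbp, summed to 2302 CPM against 959.6 to 1249 CPM, and its mitochondrial share was 0.543% against 2.08% to 2.60%.

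P5 replicate 4 was high for the dopamine transporter gene Slc6a3 (67.8 against 0.575 to 1.23 CPM in the other 4) and the interferon list (46.6 against 25.1 to 30.6 CPM in the other 4), and low for Ebf2 (20.4 against 31.9 to 35.4 CPM in the other 4). P5 replicate 1 was high for Hk2 (27.7 against 13.2 to 16.1 CPM in the other 4), and P5 replicate 5 was low for the astrocyte list (5525 against 6496 to 6778 CPM in the other 4).

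Among embryos, replicate 3 was high for Ccnd2 (204 against 91.5 to 116 CPM in the other 4), Fat2 (26.97 against 14.5 to 15.9 CPM in the other 4) and Calb1 (54.5 against 27.7 to 31.2 CPM in the other 4). Replicate 1 was low for Cdon (29.98 against 41.5 to 45.6 CPM in the other 4) and high for Gabra6 (1.10 against 0.213 to 0.428 CPM in the other 4). The other flags were the interneuron list in replicate 2 (1661 against 1392 to 1453 CPM in the other 4), Dio3 in replicate 4 (3.42 against 2.30 to 2.60 CPM in the other 4) and the immediate early list in replicate 5 (173 against 116 to 131 CPM in the other 4).

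The change from E16.5 to P5 differed between BPtch and WT for Akr1b8 (1.88, log2, BPtch minus WT), Gm5089 (-8.90) and C030037D09Rik (-1.92) by the interaction test. None of them was called without BPtch P5 replicates 2 and 3.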

How the results depend on the processing

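The counts of called genes (higher, lower, and each at least 2-fold) were 2331, 1769, 1046 and 485. They were 2605, 2458, 1052 and 559 with DESeq2, 1754, 1214, 959 and 447 under the replicate block, and 2201, 1948, 1004 and 518 with DESeq2 size factors. Leaving out 1 library gave 1716 to 2364, 1258 to 2256, 892 to 1110 and 351 to 666. Titles pass through the alphabet in more than 1 run. Within the first run (3 E16.5 and 2 P5 libraries), where fewer samples were tested, the counts were 539, 309, 495 and 247, and within the second (2 and 3) 420, 223, 341 and 148. There 10 and 5 of the 20 mitosis genes and 7 and 0 of the 20 S phase genes were called.

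List medians moved by more than the spread as follows, and the cause was not tested. Without the Hox-rich libraries they were 1.53 for granule progenitors, -0.63 for early Purkinje genes, 1.41 for astroglia, 1.66 for oligodendrocyte precursors, -6.42 for Hox and -1.24 for fetal RNA-binding genes. With the stricter filter they were 0.67 for mature granule neurons and -0.80 for fetal RNA-binding genes. Within the first run they were 1.07 for mature granule neurons, -0.73 and 0.90 for early and mature Purkinje genes, -0.97 for Hox and -0.89 for immature neurons. Within the second run they were 1.12 for precursors and -8.91 for Hox. The Hox median was -5.83 with the replicate block and -8.65 without the libraries of low mitochondrial share. Leaving out 1 library gave -8.27 to -3.02 for Hox, -0.79 to -0.55 for immature neurons and -1.24 to -1.07 for fetal RNA-binding genes.

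Replicate numbers did not pair the libraries: deviations of same-numbered libraries correlated at -0.33 to 0.15. Of 285 called genes that could be named, 45 lost the call under the block and 231 kept it in all 10 fits without 1 library. With E16.5 replicates 2 and 3, which share a title number, summed into 1 library, 24 lost the call and 261 kept it. Within a run or without the Hox-rich libraries 3 changed sign: Rn7sk (0.65 in the second run), Slc6a3 (-0.0524 in the first) and Slc4a1 (0.0743 without those libraries). The difference between BPtch and WT had 61 called genes with DESeq2, 1 with the block and 0 to 9 without 1 library. It had 0 by edgeR without BPtch P5 replicates 2 and 3, where 963 (4.86%) had an unadjusted p under 0.05.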
